A study of Mus musculus with 14 samples.

Results

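The loops described here are 13952 pairs of 10 kb bins that the caller MAPS listed in both untreated cell types. MAPS listed them in neither of the same cell types with auxin, which was given to deplete CTCF. They were selected on 4 deposited lists by exact bins: each pair was in the embryonic stem cell (ESC) control list and the neural precursor cell (NPC) control list, and in neither the ESC auxin nor the NPC auxin list. They made up 48.9% (exact 95% interval 48.3 to 49.5%) of the 28547 pairs present in both control lists, and 13952 of the 137221 pairs in any of the 4 lists. They are called lost pairs below, and the 5954 pairs listed in all 4 are called kept pairs. A pair is lost in the sense of the lists: contacts may have remained below the caller's limits.

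The series profiled chromatin contacts by H3K4me3 PLAC-seq, in which ligated chromatin carrying the promoter mark H3K4me3 is immunoprecipitated before paired sequencing. All 4 groups were CTCF-AID cells of the F123 mouse ES line, so the controls carry the degron-tagged CTCF too: ESC auxin (48 h of auxin), ESC control (0 h), NPC auxin and NPC control (both collected on day 4 of neural differentiation, with or without auxin). Auxin was given as 1 µl of a 500 mM stock per ml of medium. The labels used here give no hours of auxin for NPC auxin, so its exposure may differ from the 48 h of ESC auxin. Each group had 2 samples by their titles and 1 list per caller, so no comparison between groups has a replicate check, no p-value is given, and the intervals cover counting error only. Whether the 2 samples were pooled for calling, and whether the degron line is a single clone, the labels do not say. CTCF protein and the marker genes of either cell type were not measured by these lists, so the labels were not checked against them. The 6 samples of 3 groups with dCas9 were not analysed here.

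CTCF is a zinc-finger protein that binds a long DNA motif and stops the cohesin complex, which extrudes chromatin into loops. Loops anchored by CTCF form preferentially between motifs that point towards each other, so a motif on the plus strand tends to face partners at higher coordinates. Promoters also contact enhancers and other promoters in ways that need not pass through a CTCF site, and an auxin-inducible degron removes the tagged protein within hours.

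The following promoter windows lie at anchors of lost pairs and show what a CTCF core match looks like where there is one. They are 300-base windows across the annotated start site from RefSeq (GRCm38.p6), written on the gene's strand from 5′ to 3′. Capitals mark a match to the core consensus CCANNAGNNGGC, searched on both strands, with N for any base. Hoxd13 stands at the promoter bin with the most lost pairs (tied with Tmtc1 and Tgfb3) and holds no match. Adra2a and Kcnj2 had the most lost pairs among windows with the match on the plus strand of the chromosome, and Aldoa and Bdnf the most with it on the minus strand, apart from genes already named. Those 4 were chosen after their values were seen. Apmap belongs to 1 of the 10 strongest lost pairs.
Hoxd13 promoter window, chr2:74667975-74668274, plus strand: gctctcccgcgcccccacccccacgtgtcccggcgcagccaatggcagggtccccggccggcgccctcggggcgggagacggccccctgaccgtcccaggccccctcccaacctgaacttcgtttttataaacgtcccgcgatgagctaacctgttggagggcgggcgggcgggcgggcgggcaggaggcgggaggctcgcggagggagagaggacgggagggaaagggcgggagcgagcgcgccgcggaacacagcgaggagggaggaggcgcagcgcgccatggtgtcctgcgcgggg
Adra2a promoter window, chr19:54045009-54045308, plus strand: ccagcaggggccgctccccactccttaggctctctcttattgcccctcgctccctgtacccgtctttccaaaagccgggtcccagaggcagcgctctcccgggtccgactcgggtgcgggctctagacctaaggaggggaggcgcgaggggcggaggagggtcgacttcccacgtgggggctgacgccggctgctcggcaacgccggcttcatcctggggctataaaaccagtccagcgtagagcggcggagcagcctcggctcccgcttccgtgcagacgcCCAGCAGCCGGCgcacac
Kcnj2 promoter window, chr11:111065914-111066213, plus strand: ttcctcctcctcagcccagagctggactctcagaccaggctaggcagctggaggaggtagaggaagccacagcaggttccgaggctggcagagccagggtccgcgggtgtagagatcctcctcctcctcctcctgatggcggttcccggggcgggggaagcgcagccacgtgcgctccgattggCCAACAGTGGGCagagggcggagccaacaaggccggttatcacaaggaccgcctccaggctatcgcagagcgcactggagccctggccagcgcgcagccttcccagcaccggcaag
Bdnf promoter window, chr2:109692186-109692485, plus strand: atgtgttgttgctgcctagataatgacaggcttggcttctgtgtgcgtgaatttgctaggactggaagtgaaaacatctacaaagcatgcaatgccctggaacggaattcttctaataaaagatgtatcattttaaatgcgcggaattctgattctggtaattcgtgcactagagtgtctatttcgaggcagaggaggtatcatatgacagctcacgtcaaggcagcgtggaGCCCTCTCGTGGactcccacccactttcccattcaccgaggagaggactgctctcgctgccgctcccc
Aldoa promoter window, chr7:126800398-126800697, minus strand: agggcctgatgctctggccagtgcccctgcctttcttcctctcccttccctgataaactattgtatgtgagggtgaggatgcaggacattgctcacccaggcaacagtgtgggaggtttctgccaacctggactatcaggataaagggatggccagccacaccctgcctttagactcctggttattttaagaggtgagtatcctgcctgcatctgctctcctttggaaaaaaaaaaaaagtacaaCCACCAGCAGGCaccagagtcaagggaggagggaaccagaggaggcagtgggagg
Apmap promoter window, chr2:150608518-150608817, minus strand: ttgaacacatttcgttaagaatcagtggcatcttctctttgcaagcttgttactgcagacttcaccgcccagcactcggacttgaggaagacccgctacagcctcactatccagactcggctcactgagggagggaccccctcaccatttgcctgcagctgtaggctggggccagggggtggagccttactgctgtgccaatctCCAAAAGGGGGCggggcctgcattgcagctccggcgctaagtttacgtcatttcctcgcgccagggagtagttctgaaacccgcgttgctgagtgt
All 11 partner bins of the lost pairs at the Adra2a bin lay at higher coordinates, the side its plus-strand match faces, and all 6 at the Bdnf bin lay at lower coordinates, the side its minus-strand match faces. Kcnj2, with a plus-strand match, had 3 partners at higher and 8 at lower coordinates. Aldoa and Apmap, with minus-strand matches, had all of their 8 and 3 partners at higher coordinates. The examples therefore run both ways, and the full set of windows is described further on.

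The lost pairs sit in a large background of loops absent after auxin. MAPS called 27610 loops in ESC auxin against 56714 in ESC control, and 41667 in NPC auxin against 82861 in NPC control. Of the control loops, 77.1% in ESCs and 73.0% in NPCs were not called after auxin. Among the pairs present in both control lists, 68.0% were absent from ESC auxin and 60.0% from NPC auxin, and 48.9% were absent from both. In the FitHiChIP lists 33.6% of the pairs of both controls were absent from both auxin lists. The total contacts behind the lists of the second caller, FitHiChIP, were 48307867 in ESC auxin, 47519917 in ESC control, 59961568 in NPC auxin and 52337421 in NPC control, so the auxin libraries were the deeper ones. Of the 19405 pairs absent from ESC auxin, 71.9% (71.3 to 72.5%) were also absent from NPC auxin, whereas of the 9142 pairs called in ESC auxin, 34.9% (33.9 to 35.9%) were absent from NPC auxin. The share lost ranged from 43.2 to 59.2% over the 19 autosomes, with a median of 48.7% and an SD of 4.24 percentage points.

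The lost pairs were the weaker part of the shared control loops. Since the control values are part of the contrast that chose them, these values are a description. The median MAPS count of a lost pair was 27 in ESC control and 30 in NPC control, against 36 and 46 for a kept pair. The median ratio of count to expected background was 2.91 in ESC control and 3.0 in NPC control for lost pairs, and 3.46 and 3.97 for kept pairs. The median count of lost pairs was below that of kept pairs on 19 of 19 autosomes in both cell types. The share lost was 59.9% where the lower of the 2 control ratios was 2 to 2.5, then 51.5%, 44.4% and 34.8% over the next 3 classes, and 21.2% (18.7 to 23.9%) where it was over 6. The share lost was thus lower among strong loops, but loops in every strength class were lost. The counts of lost pairs differed little between the control cells, with a median log2 ratio of NPC over ESC counts of 0.12, against 0.30 for kept pairs.

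Distance ordered the lost pairs differently depending on which measure of strength was held fixed. The median distance was 220 kb for lost pairs (quartiles 140 and 320 kb) and 230 kb for kept pairs, and the gap ran from -110 to 30 kb over the autosomes. The share lost was 61.6% (59.7 to 63.6%) under 100 kb, 51.4% at 100 to 190 kb, 46.6% at 200 to 490 kb and 41.0% (39.2 to 42.9%) at 500 kb to 1 Mb. Among the strongest of 5 equal classes of control FDR, 52.0% of 1147 pairs under 100 kb were lost, against 26.6% of 2182, 17.9% of 1990 and 16.1% of 391 in the longer classes. In that class the lower control ratio had a median of 2.58 under 100 kb and 6.84 at 500 kb to 1 Mb, and its lost pairs had a median count in ESC control of 103 under 100 kb and 25 at the longest distance. The short pairs of that class thus had high counts at ratios near the caller's limit of 2. Within a class of ratio the order changed: between 4 and 6, 14.9% (7.66 to 25%) of 74 pairs under 100 kb were lost against 42.1% (39.0 to 45.3%) of 987 pairs at 500 kb to 1 Mb, while between 2 and 2.5 the shares were 70.1% of 1566 and 27.6% of 76. With the FitHiChIP lists the median distance of lost pairs differed from that of kept pairs by -360 kb, or by -70 kb when those lists were limited to autosomes and 1 Mb.

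**Figure D1:**
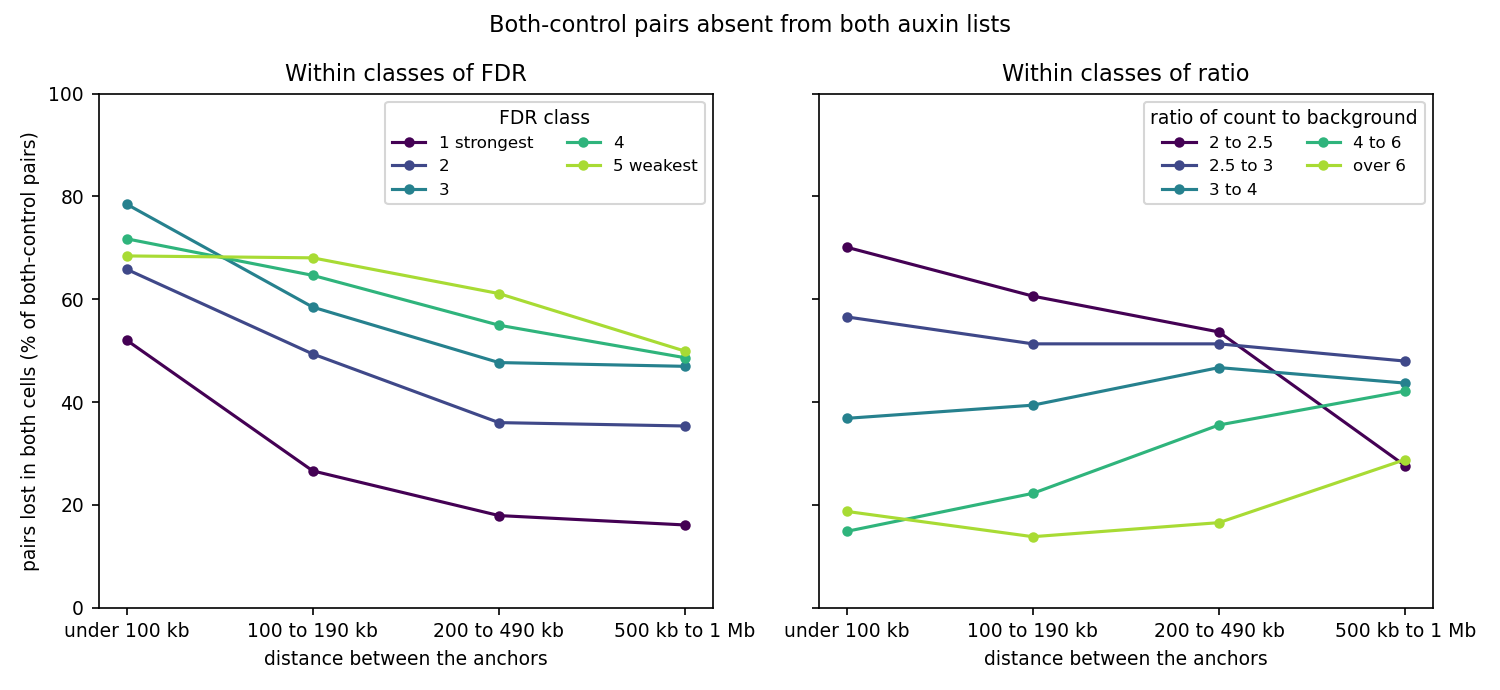
Share of both-control pairs lost in both cell types (vertical axis, percent) by distance class (horizontal axis), with 1 line per class of FDR, the larger of the 2 control values (left), or per class of the lower control ratio (right). Every line on the left starts above where it ends, with the strongest class falling to 16.1%, while on the right the line for ratios of 4 to 6 reaches 42.1% at the longest distance.

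A smaller share of lost than of kept pairs had H3K4me3 peak bins at both anchors in the MAPS lists. Every listed pair has a peak bin at 1 or both anchors, by marks the authors deposited with the MAPS lists. The marks of the 2 control lists were the same for 91.4% of lost pairs. Both anchors were peak bins in 23.8% (23.1 to 24.5%) of lost pairs and 41.2% (39.9 to 42.5%) of kept pairs by the ESC marks, and in 18.7% and 35.7% by the NPC marks. The gap in the ESC marks was below 0 on 19 of 19 autosomes, from -32.0 to -8.39 percentage points. Put the other way, 52.5% of pairs with 1 peak anchor were lost and 40.1% of pairs with 2. Over the 25981 pairs with the same marks in both control lists, 30.2% with 1 peak anchor were lost and 25% with 2 in the strongest class of FDR, and 64.8% and 48.3% in the weakest class. By the lower control ratio, 64.5% (63.1 to 65.8%) with 1 peak anchor were lost and 50.5% (48.6 to 52.4%) with 2 at ratios of 2 to 2.5, and 24.4% (21.4 to 27.7%) of 765 and 9.27% (5.16 to 15.1%) of 151 at ratios over 6. In sets built from the FitHiChIP lists, however, the gap between lost and kept was -2.19 percentage points by ESC marks and -1.47 by NPC marks, against -17.4 and -17.1 in the MAPS lists. Those FitHiChIP sets were not limited to autosomes and 1 Mb as the MAPS lists were, so they differ in more than the caller. Gene bins, meaning peak bins at the start of a protein-coding gene or, for some genes, at an end, stood at both anchors of 7.05% of lost pairs and 12.5% of kept pairs. Where the same 1 anchor was the peak bin in both control lists, the other anchor overlapped a protein-coding gene body in 58.0% (57.1 to 59.0%) of 10392 lost pairs and in 53.0% (51.3 to 54.7%) of 3351 kept pairs, and it lay next to another peak bin in 37.0% and 46.4%.

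The caller's own grouping showed the same side of the lost pairs. MAPS labels a loop by the cluster it falls in, and 66.0% (62.2 to 69.7%) of the 639 pairs labelled singletons in ESC control were lost, against 55.7% of those in sharp peaks and 38.5% of those in broad ones. When lost pairs were joined where both anchors lay within 1 bin, they fell into 9015 clusters, of which 6386 were single pairs and 279 held at least 5. All both-control pairs formed 11748 clusters, and in 5753 of these every pair was lost, including clusters of a single lost pair. Those 5753 clusters held 8332 (59.7%) of the lost pairs. Neighbouring pairs of a patch are not independent measurements.

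For many lost pairs an auxin loop was still called close by. An auxin loop with both anchors within 1 bin was listed for 29.8% of lost pairs in ESC auxin and 34.5% in NPC auxin, and 54.1% (53.3 to 54.9%) had none in either cell type. Within 2 bins, 41.4% (40.6 to 42.2%), or 5775 pairs, had none. Those 5775 pairs are those for which the call does not turn on a shift of the called bin by up to 20 kb. The share near an auxin loop was not taken for other control loops. These values therefore do not show whether lost pairs differ from them.

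FitHiChIP, run by the authors on the same libraries, rarely called the lost pairs after auxin. It called 1.74% (1.53 to 1.97%) of lost pairs in ESC auxin against 30.8% (30.1 to 31.6%) in ESC control, and 2.07% (1.84 to 2.32%) in NPC auxin against 34.4% (33.7 to 35.2%) in NPC control. For kept pairs the shares were 48.0% in ESC auxin against 64.0% in ESC control, and 45.5% in NPC auxin against 71.1% in NPC control. Of the 2837 lost pairs that FitHiChIP called in both controls, 2484 (87.6%) were in neither of its auxin lists, and 1072 of those also had no MAPS auxin loop within 2 bins. Among pairs FitHiChIP called in both controls, the share in neither of its auxin lists was 18.8% for 3341 kept pairs. It was 42.7% for 998 both-control pairs that MAPS kept in ESC auxin only, and 43.2% for 1898 kept in NPC auxin only. FitHiChIP's own lost set held 6018 pairs, of which 4358 were in both MAPS control lists. The 2484 shared pairs were 41.3% of the 6018 and 17.8% of the MAPS set. Both callers read the same libraries, so this is not a replicate.

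**Figure D2:**
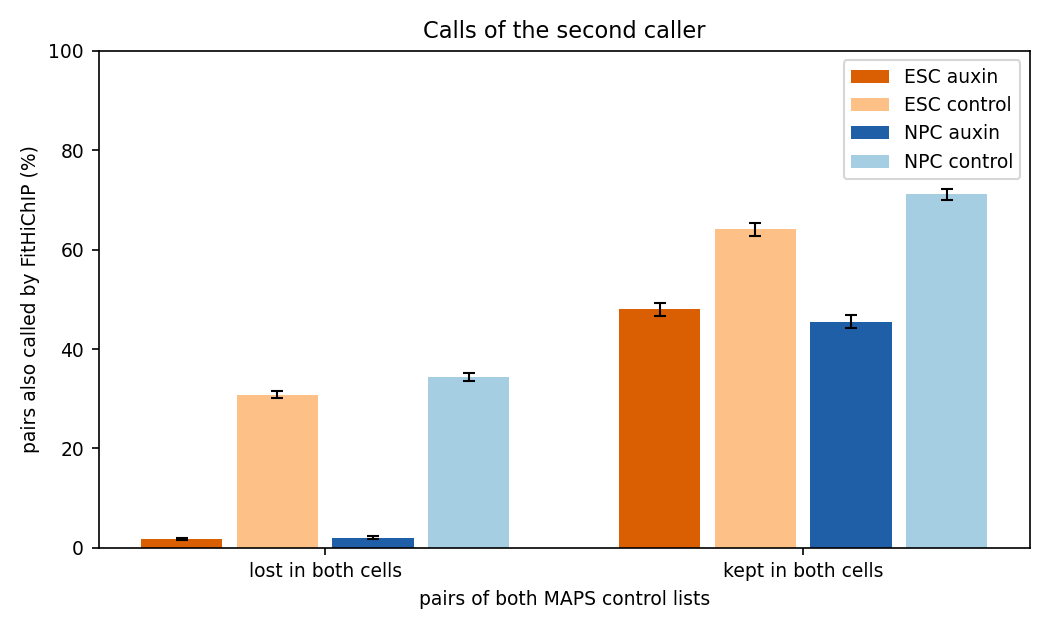
Percent of lost pairs and kept pairs (2 blocks) that FitHiChIP also called in each of its 4 lists, with exact 95% intervals as error bars. Lost pairs are at 1.74% in ESC auxin and 30.8% in ESC control, while kept pairs are at 48.0% and 64.0%.

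The few lost pairs that FitHiChIP listed both with and without auxin give a count after auxin. At 236 such pairs in ESCs the median was 59.5 contacts in ESC auxin and 79.5 in ESC control, and 216 pairs were lower in auxin after scaling. Scaled to the total contacts of each list, the median log2 ratio of auxin over control was -0.39 (quartiles -0.64 and -0.20), against -0.16 for 2504 kept pairs and -0.02 for all 14509 pairs that FitHiChIP listed in both. At 279 lost pairs in NPCs the medians were 64 contacts in NPC auxin and 82 in NPC control, the median log2 ratio was -0.53, and 274 were lower after scaling. Kept pairs in NPCs had -0.38 and all shared pairs -0.20. In ESCs 91.5% of lost, 66.5% of kept and 51.1% of all shared pairs were lower in auxin after scaling. In NPCs the shares were 98.2%, 83.0% and 72.6%. Lost pairs were chosen for having no MAPS call with auxin in the same libraries, so lower counts are part of that choice. The lost pairs counted here are those with enough contacts left to be called, so they do not stand for all lost pairs.

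The second caller's lists also give the reads at each anchor. Bins anchoring lost and no kept pairs, or the reverse, were compared where FitHiChIP listed them in both lists of a cell type. In ESCs the bins of lost pairs had a median log2 ratio of reads, auxin over control and scaled to total contacts, of 0.04 (2410 bins, median 4118.5 reads in ESC auxin and 3933 in ESC control), against 0.07 for 1705 bins of kept pairs. In NPCs the values were -0.11 for 3057 bins of lost pairs and -0.07 for 1728 bins of kept pairs. Without scaling, the ratios at bins of lost and kept pairs were 0.06 and 0.09 in ESCs, and 0.09 and 0.13 in NPCs. Short-range reads, an output of MAPS, were also not scaled to total contacts. Their log2 ratios were 0.31 at bins of lost pairs and 0.33 at bins of kept pairs in ESCs, and 0.14 and 0.16 in NPCs. Over all bins listed in both MAPS lists of a cell type they were 0.32 in ESCs and 0.16 in NPCs. The unscaled values include the difference in total contacts. Those totals were close in ESCs (48307867 in ESC auxin and 47519917 in ESC control). They were further apart in NPCs (59961568 in NPC auxin and 52337421 in NPC control). The cause of the rise in short-range reads was not tested.

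The lost pairs touched 16499 bins, and 10520 of these (63.8%) lost every pair they had in both controls, while 3128 also anchored a kept pair. Bins whose only both-control pair was lost are among the 10520, and every bin was chosen for having a lost pair. The share over all anchor bins of both-control pairs was not taken. Most bins carried few: 11042 had 1 lost pair, and 801 had at least 5, up to 19. A bin with many lost pairs has more loops in the control lists by its choice. At those 801 bins the median number of loops of any kind was 3 in ESC auxin against 13 in ESC control, and 5 in NPC auxin against 16 in NPC control. No auxin loop at all was listed at 155 of them in ESC auxin and at 131 in NPC auxin. The share at other bins with as many control loops was not taken. Of the auxin loops called at the 801 bins, 24.0% in ESCs and 23.7% in NPCs were in neither control list. The share over all auxin loops was not taken, so these values do not show a gain of loops at these bins. At bins with many lost pairs the partners usually lay on 1 side: at 606 of the 801 (75.7%, 72.5 to 78.6%) all partners were at higher or all at lower coordinates. The share was 88.0% (84.3 to 91.1%) of the 383 bins with at least 5 kept pairs, and 72.2% (70.5 to 73.9%) of the 2719 bins with at least 5 both-control pairs of any kind.

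In each of the 10 promoter bins with the most lost pairs, all partners lay on 1 side of the promoter. This was common at bins with many loops: all partners lay on 1 side at 60 of 75 bins with at least 10 lost pairs, at 56 of 61 with at least 10 kept pairs and at 498 of 703 (70.8%) with at least 10 both-control pairs. Hoxd13, which patterns the tips of the limbs and the posterior trunk, had 17 of 20 both-control pairs lost (mm10, chr2:74660001-74670000). Its 17 partners were all at lower coordinates, 360 to 810 kb away, on the side of the gene desert known for digit enhancers of the HoxD cluster. The bin had 0 loops in ESC auxin against 22 in ESC control, and 9 in NPC auxin against 47 in NPC control. FitHiChIP listed 6 loops in ESC auxin against 17 in ESC control, and 9 in NPC auxin against 36 in NPC control. MAPS thus listed no loop in ESC auxin where FitHiChIP listed 6.

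Tgfb3, a ligand of the TGF-beta family, had 17 of 21 pairs lost (chr12:86070001-86080000), with partners 110 to 340 kb away at lower coordinates. Its bin had 0 loops in ESC auxin against 26 in ESC control and 4 in NPC auxin against 24 in NPC control, and FitHiChIP listed 0 in either auxin list against 7 in each control list. It was the only 1 of the 10 bins with no FitHiChIP loop in either auxin list. Tmtc1, which encodes an O-mannosyltransferase of the endoplasmic reticulum, had 17 of 28 pairs lost, all with partners at higher coordinates, and 5 loops in ESC auxin against 34 in ESC control. Ebf3, a transcription factor of neuronal differentiation, had 16 of 21 lost, with 3 loops in ESC auxin against 22 in ESC control and 15 in NPC auxin against 62 in NPC control. Dhrs3, which reduces retinaldehyde back to retinol, had 15 of 25 lost. Its bin had 3 loops in ESC auxin against 28 in ESC control, and 19 in NPC auxin against 33 in NPC control, the most loops of any of the 10 in NPC auxin.

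The bin of Pcdhb21 and Pcdhb22, neural adhesion genes of the protocadherin beta cluster, had 15 of 19 pairs lost. It had 6 loops in ESC auxin against 21 in ESC control, but 1 in NPC auxin against 28 in NPC control. Trmt12, a tRNA-modifying enzyme, had 15 of 29 lost, Plpp3, a lipid phosphatase, had 14 of 20, and Tsc22d1, a transcription regulator, had 14 of 23. The bin shared by Vpreb3 and Gm5134 had 15 of 20. Plpp3 had 4 loops in ESC auxin against 26 in ESC control, and 11 in NPC auxin against 65 in NPC control, the most in any list at these bins.

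**Figure D3:**
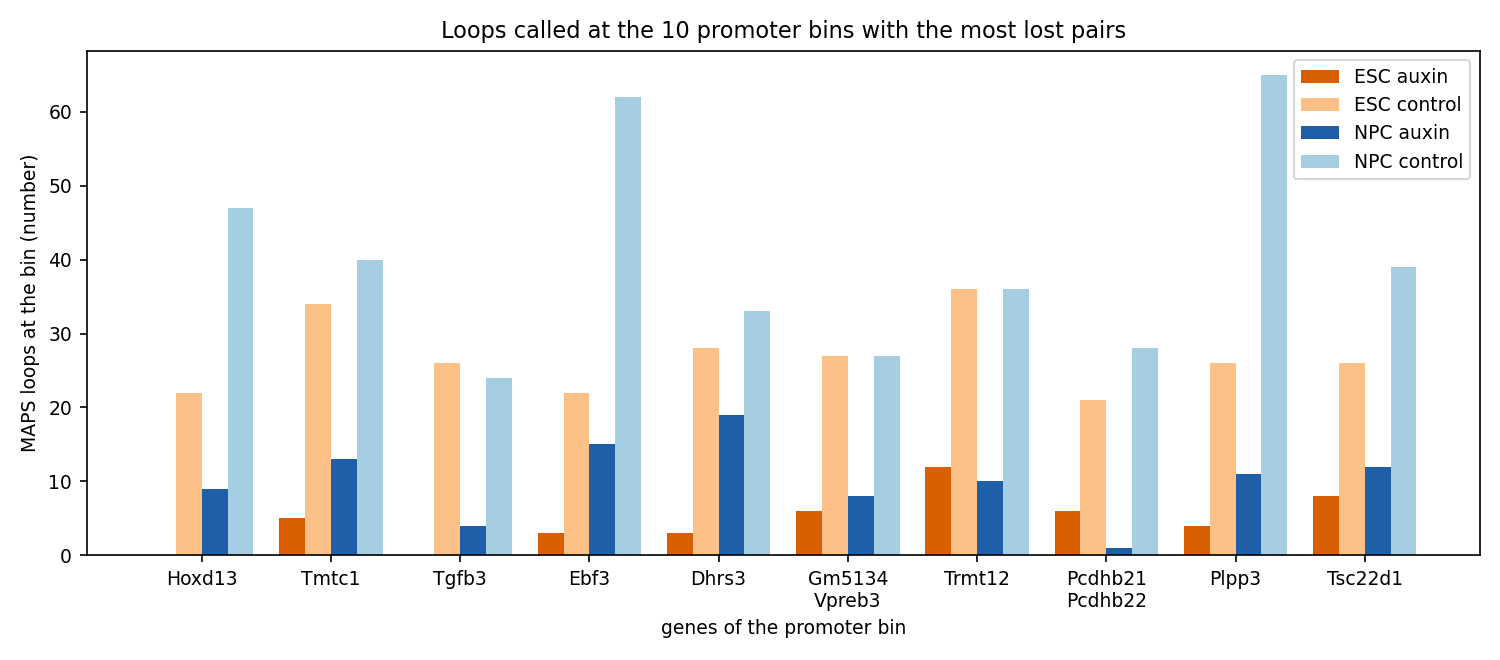
Number of MAPS loops (vertical axis) in ESC auxin, ESC control, NPC auxin and NPC control at the 10 promoter bins with the most lost pairs, 1 block of bars per bin, named by its genes. Hoxd13 and Tgfb3 have no ESC auxin bar because the value is 0, and Plpp3 has the tallest NPC control bar with 65.

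Bins with as many lost pairs were also found beside gene starts. A peak bin over the body of Hoxa13, the HoxA counterpart of Hoxd13, had the highest number, 19 of 22 pairs lost (chr6:52250001-52260000). Its partners were all at higher coordinates, 270 to 730 kb away, which is the flank of the HoxA cluster next to Hoxa13. It had 1 loop in ESC auxin against 26 in ESC control, and 7 in NPC auxin against 39 in NPC control. A bin over Fbxl14 and Wnt5b had 17 of 19 lost, with 1 loop in ESC auxin against 25 in ESC control and 2 in NPC auxin against 41 in NPC control. A peak bin within the imprinted Gnas locus had 16 of 21 lost and, unlike those above, 8 partners on each side.

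The largest cluster of lost pairs joined the protocadherin beta and gamma clusters. It held 23 pairs between 37470001 to 37540000 and 37710001 to 37770000 on chromosome 18. Its strongest pair linked the bin of Pcdhb21 and Pcdhb22 with that of Pcdhga8 and Pcdhgb4, 210 kb apart, with a MAPS count of 91 in ESC control and 83 in NPC control. No MAPS loop in NPC auxin lay within 1 bin of any of the 23, while 6 had one in ESC auxin. These clustered genes are known to be chosen stochastically in neurons with the help of CTCF sites at their promoters. The next clusters joined 4930451I11Rik with Sez6l2 (18 pairs, chromosome 7), Nhlh1, a neuronal transcription factor, with the potassium channel gene Kcnj9 (17 pairs, chromosome 1), and the desert beside HoxD with Evx2 and Hoxd13 (16 pairs, 600 kb at the strongest).

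Which cell type still had auxin loops near a cluster varied among the 10 largest. The HoxD cluster had a MAPS auxin loop within 1 bin for 0 of its 16 pairs in ESCs and for 9 in NPCs. The cluster of Nhlh1 and Kcnj9 had one for 12 of 17 in ESCs and 1 in NPCs, and that of Evx1 and Jazf1, on the Hoxa13 side of HoxA, for 8 of 13 in ESCs and 0 in NPCs. In 2 clusters no pair had one in either cell type. The cluster of Fam83c and Gdf5, which is a growth factor gene of joint formation, held 15 pairs, and its strongest pair had a count of 104 in ESC control and 103 in NPC control. The other, on chromosome 12 between 72820001 and 73000000 with no protein-coding gene at the anchors of its strongest pair, held 14 pairs, with 116 in ESC control and 105 in NPC control. The cluster of Bcl2l14 and Mansc1 (15 pairs, chromosome 6) had an auxin loop within 1 bin for 0 of its pairs in ESCs and 5 in NPCs. Its strongest pair had the highest ratios among the 10 strongest lost pairs by FDR, 8.47 in ESC control and 10.8 in NPC control.

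The 10 strongest single lost pairs by control FDR, at most 1 per cluster, joined bins 20 to 190 kb apart. The pair of Junb, an AP-1 transcription factor gene, with Hook2, a microtubule linker gene 20 kb away on chromosome 8, ranked first. Its MAPS count was 576 in ESC control and 750 in NPC control at ratios of 2.39 and 2.20, FitHiChIP counted 557 and 714 contacts, and neither caller listed it with auxin in either cell type. Apmap and a bin 70 kb away without a gene start had 157 in ESC control and 209 in NPC control at ratios of 4.25 and 4.97, and again neither caller listed them after auxin. The same was true of Cotl1, an actin-binding protein gene, with a bin 60 kb away (182 and 176). For Junb, Apmap and Cotl1 no auxin loop lay within 2 bins either. The 10 pairs with the most FitHiChIP control contacts and no call after auxin by either caller also included Aurkb, a mitotic kinase gene, with Aloxe3 and Hes7 (MAPS counts of 232 in ESC control and 321 in NPC control), Kifc1 with Rgl2 (149 and 156), Cish, a STAT-induced inhibitor of cytokine signalling, with Hemk1 (173 and 227), and Shmt2 and Ndufa4l2 with Nxph4 (327 and 360). The MAPS ratios of these 10 ran from 2.01 to 2.89 in ESC control, where the median of all lost pairs was 2.91.

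Other strong lost pairs were listed by FitHiChIP after auxin. At a pair of bins 20 kb apart over Slc2a3, the glucose transporter GLUT3, FitHiChIP counted 404 contacts in ESC auxin against 523 in ESC control, and 458 in NPC auxin against 604 in NPC control. Its MAPS ratio in ESC control was 2.07. For the pair of Borcs6 with Hes7, a target of Notch signalling, the counts were 261 in ESC auxin against 357 in ESC control, and 327 in NPC auxin against 443 in NPC control. Paxillin's Pxn pair had 161 in ESC auxin against 277 in ESC control, and the pair of Flot1 and Tubb5 with Dhx16 had 178 against 318, neither of them listed in NPC auxin. Some lost pairs with high FitHiChIP counts had nearly the same unscaled contacts in ESC auxin as in ESC control, and fewer in NPC auxin than in NPC control. A pair on chromosome 17 with Gm51425 at 1 anchor had 255 in ESC auxin against 248 in ESC control, and 279 in NPC auxin against 347 in NPC control. The pair of 5430403G16Rik with 4930522L14Rik had 369 in ESC auxin against 370 in ESC control, and 510 in NPC auxin against 535 in NPC control. The callers differed widely at both of these pairs. MAPS counted only 12 in ESC control and 17 in NPC control at the Gm51425 pair, and 17 and 12 at the other. At the Slc2a3 pair the MAPS count in ESC control was 536, close to that of FitHiChIP. The reason for the difference was not tested.

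The limits of the lists bear on such pairs. The highest control FDR among the lost pairs was 0.00999 in both cell types, and the lowest control ratio was 2.00. Among both-control pairs that stayed in a list after auxin, the weakest had an FDR of 0.00999 with a count of 14, at a ratio of 3.0 in ESC auxin and 2.88 in NPC auxin. An FDR above 0.005 was found in 8.69% of the 9142 pairs still called in ESC auxin and 6.02% of the 11407 still called in NPC auxin, and in 8.86% of lost pairs in ESC control and 5.75% in NPC control. The lower control ratio was 2 to 2.5 in 37.3% (36.5 to 38.1%) of lost pairs and 18.5% (17.5 to 19.5%) of kept pairs.

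The share of control pairs lost varied among the gene lists, which are described beside the share at all gene bins, 47.1% (9467 of 20086 pairs). Clustered protocadherins had 57.3% (49 to 65.4%) lost, or 86 of 150 pairs. Genes of pluripotency had 25% (12.7 to 41.2%), or 10 of 40. Among them Tbx3 had 3 of 15 pairs lost and Klf4 2 of 3, while Sox2, tied with Klf4 in lost pairs, had 2 of 10. Hox genes had 34.1% (29.2 to 39.2%), or 124 of 364, although Hoxd13 with 17 of 20 and Hoxd11 with 13 of 22 over its 2 bins were among them. Genes of mesoderm and endoderm had 32.1% (18 of 56), with 6 of 11 at Mesp1, a cardiac mesoderm factor, and 4 of 12 at Foxa2, an endoderm factor. In all, the Mesp1 bin had 14 MAPS loops in ESC auxin against 11 in ESC control, and 6 in NPC auxin against 15 in NPC control. The Foxa2 bin had 11 in ESC auxin against 18 in ESC control, and 25 in NPC auxin against 26 in NPC control. When an auxin loop within 1 bin was counted as called, the share was 7.69% at Hox bins, 8.93% at mesoderm and endoderm bins, 31.3% at protocadherin bins and 26.4% over all gene bins. In the FitHiChIP lists it was 39.8% at Hox bins, 44.8% at protocadherin bins and 25% at pluripotency bins, beside 38.9% (4283 of 11017) over all gene bins. The share at Hox bins was thus below that of all gene bins in the MAPS lists and close to it in the FitHiChIP lists.

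Neural progenitor genes had 39.7% (32.3 to 47.3%) of 174 pairs lost in the MAPS lists, beside 47.1% over all gene bins, and 49.4% in the FitHiChIP lists, beside 38.9%, with 13 of 21 at Meis2, a homeobox gene, and 9 of 17 at Pou3f1. At the Meis2 bin MAPS listed 14 loops in ESC auxin against 27 in ESC control, and 13 in NPC auxin against 54 in NPC control. Neural crest genes had 19 of 38 lost, of which Tfap2a, a neural crest regulator, had all of its 9, and Snai1 4 of 12. Snai2, tied with Snai1 in lost pairs, had 4 of 6. Retinoic acid genes had 47.8% of 69, with Aldh1a2, the enzyme that makes retinoic acid in the embryo, at 9 of 13. Signalling ligands had 48.6% of 173 (60.7% in the FitHiChIP lists, beside 38.9% over all gene bins), with Wnt7b at 14 of 23. Imprinted genes had 40.8% of 120, with Gnas at 15 of 20 over its 3 bins and Igf2 at 6 of 10 over its 2. Peg10, tied with Igf2 in lost pairs, had 6 of 14. The neuron, housekeeping and CTCF and cohesin lists had too few pairs to place: 2 of 4 (Elavl3 and Isl1 with 1 each), 3 of 10 (Gusb 1 of 1 and Polr2a 1 of 2 included), and 8 of 17 (Wapl 2 of 2 and Sgo1 2 of 5 included).

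**Figure D4:**
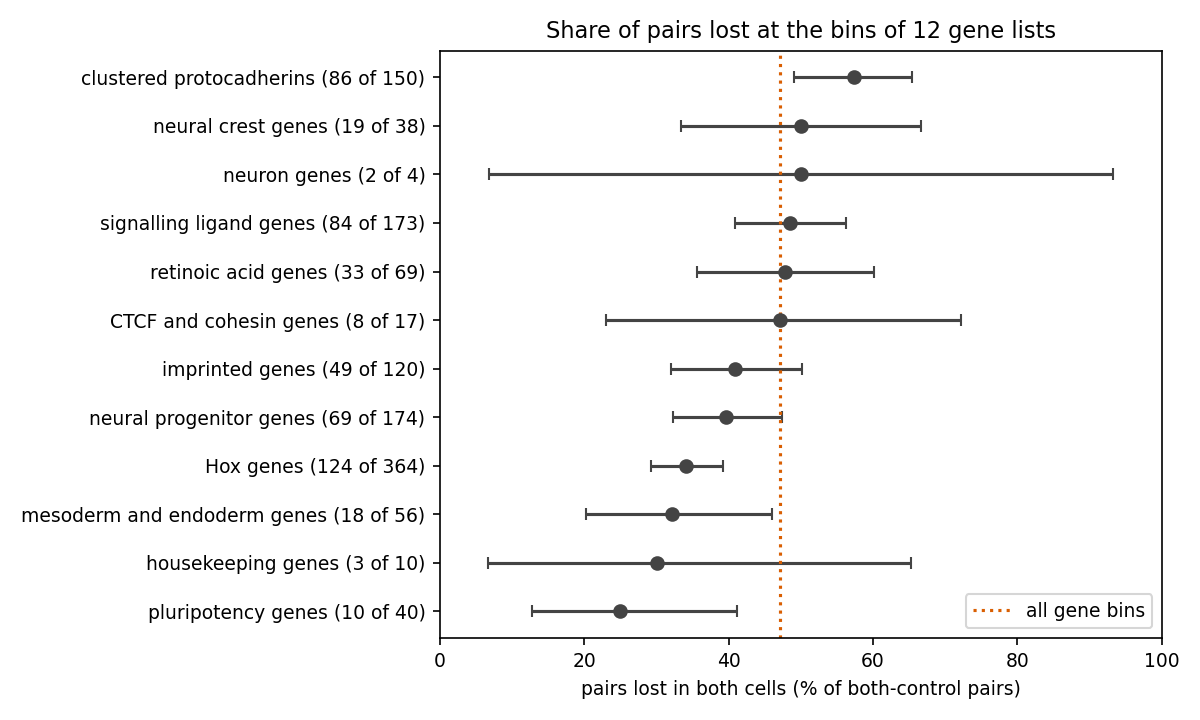
Share of both-control pairs lost in both cell types (horizontal axis, percent, with exact 95% intervals) at the bins of 12 gene lists, with the pairs lost and the pairs in all in brackets. The dotted line is the share at all gene bins, 47.1%, and clustered protocadherins lie to its right at 57.3%, while Hox and pluripotency genes lie to its left in these MAPS lists.

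The core CTCF consensus was no more frequent in promoter windows at lost pairs than at kept ones. It stood in 2.59% (2.03 to 3.26%) of 2738 windows at bins whose both-control pairs were all lost, and in 3.87% (2.44 to 5.80%) of 569 windows at bins whose pairs were all kept, with overlapping intervals. The share was 2.95% over all windows at peak bins and 2.43% over all 32851 RefSeq windows. A relaxed form, CCNNNAGNNGGC, which includes the consensus, stood in 12.5% and 10.7%, so the sign of the gap depended on the motif. The reversed letters CGGNNGANNACC, a control for base composition, stood in 0.694% and 1.05%. Beyond these 300-base windows the sequence of the bins was not examined. Among genes named for the top promoter bins, the largest clusters' strongest pairs or the strongest pairs, 21 had a window at an anchor of lost pairs. Of these, 2 held the consensus, Apmap and Tsc22d1, and that of Tsc22d1 is at another start site with 2 lost pairs. Adra2a, Kcnj2, Aldoa and Bdnf, printed for their matches, are not among the 21. The share was 3.27% over all 6338 windows at bins of lost pairs.

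The side of the partner was compared with the strand of the match. At 95 bins with a plus-strand match, such as Adra2a, 64.6% of 257 lost pairs had the partner at the higher coordinate, and 58 bins had more partners there against 32 with more at lower coordinates. At 90 bins with a minus-strand match, such as Bdnf, 39.7% of 189 lost pairs did, with 35 bins against 53. Without a match the share was 49.3% of 9141 lost pairs. Kept pairs showed the same order, with 65.4% of 133 at plus-strand matches and 23.7% of 97 at minus-strand matches. With the relaxed motif the order was the same and the gap smaller: 53.7% of 719 lost pairs at plus-strand matches (160 bins against 132) and 46.7% of 806 at minus-strand matches (168 bins against 198). The reversed letters gave 38.2% of 34 lost pairs for plus-strand matches and 53.4% of 88 for minus-strand matches, the opposite order by pairs. By bins it was not opposite: 8 bins against 10 at plus-strand matches and 8 against 12 at minus-strand matches. The mean share per bin was 44.4% and 39.2% with the reversed letters, beside 62.8% and 39.4% with the consensus. Pairs of 1 bin share its window, so the bins and not the pairs are the units. By gene strand, 55.0% (53.9 to 56.1%) of lost pairs and 51.6% (49.9 to 53.3%) of kept pairs had the partner downstream.

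**Figure D5:**
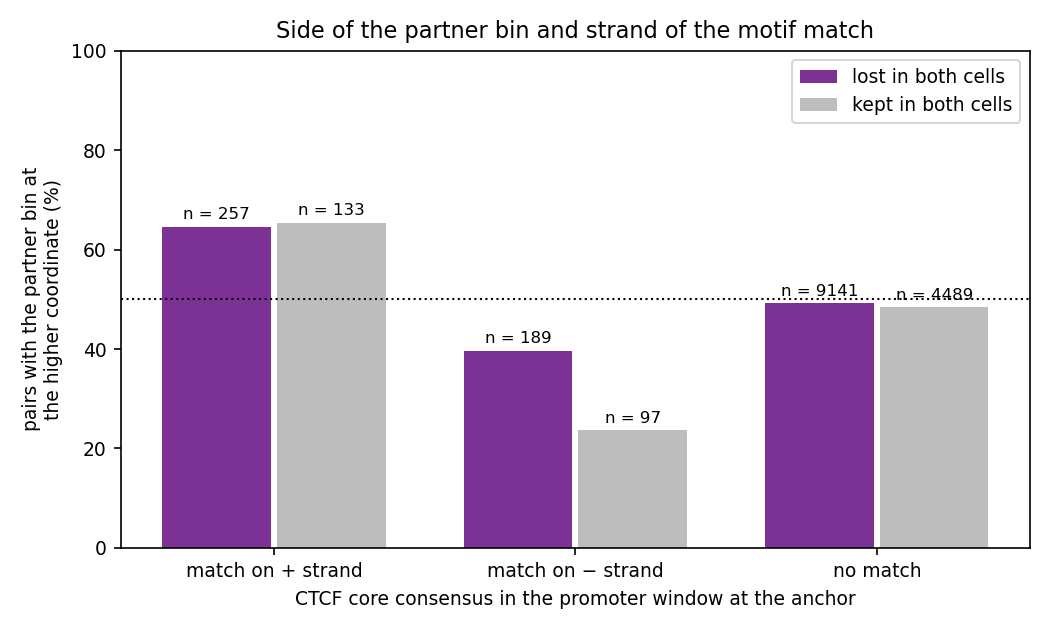
Percent of pairs whose partner bin lies at the higher coordinate (vertical axis) for lost and kept pairs at anchors whose promoter window holds the core consensus on the plus strand, on the minus strand or not at all, with the number of pairs above each bar. Lost pairs are at 64.6% with a plus-strand match and 39.7% with a minus-strand match, on either side of the dotted line at 50%.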

How the data were processed

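The analysis used 8 deposited loop lists, 1 per group and caller (MAPS and FitHiChIP, per the labels). BWA and Picard, with no version, and the genome build mm10 are credited to the submitters' processing notes. Per the file headers, a MAPS list gives for each pair of 10 kb bins a read count, the expected background as a signal, the ratio of count to background, an FDR (a p-value corrected by the authors), short-range read coverage (a score per bin), GC content and peak marks. The deposited FitHiChIP lists give contact counts, reads per anchor, a q-value and the expected fraction of all contacts, from which the total contacts followed. Every MAPS loop had a count of at least 12, a ratio of at least 2, an FDR under 0.01 and a distance of 20 to 1000 kb. Except where stated, sets built from the FitHiChIP lists were not limited to autosomes and 1 Mb. FitHiChIP counts were compared on the log2 scale after scaling to total contacts, while the MAPS counts were used as deposited.

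The members, gene lists and comparisons were chosen with earlier results of these data known. Pairs were matched by exact bins. A gene bin was the peak bin holding a protein-coding gene's start site, or else a neighbouring peak bin within 2 kb of it. For genes without a start in the RefSeq promoter table, a peak bin at a gene end was used. This placed 12912 of 21900 genes in 11490 bins, 2682 of them by a gene end. Named were the 10 gene bins, 10 clusters and 10 strongest pairs, the 10 strongest pairs by FitHiChIP, and the 2 genes with the most lost pairs of each of 12 lists. Some genes tied with these are named too. Intervals are exact Clopper-Pearson intervals at 95%, from SciPy 1.17.1, with pandas 2.3.3. No test of conditions was possible with 1 list per group. The classification and motif search were checked on simulated data.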

Additional observations from a re-analysis of the deposited data

How the results depend on the processing

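The share of both-control pairs lost, 48.9%, was 26.4% when an auxin loop within 1 bin counted as called, 33.6% in the FitHiChIP lists, 39.4% for control FDR under 0.0001 and 53.4% with 1 pair per cluster. The median distance of lost minus kept pairs, -10.0 kb, was -360 kb in the FitHiChIP lists, -70.0 kb in those lists limited to autosomes and 1 Mb (an alternative chosen after seeing the data), and -50.0 kb for the stricter FDR. The gap in pairs with peak bins at both anchors, -17.4 points by ESC marks and -17.1 by NPC marks, was -2.19 and -1.47 in the FitHiChIP lists, and -23.7 and -24.0 with 1 pair per cluster. The gap in median count, -9 in ESC control and -16 in NPC control, was -4 and -8 with the 1-bin tolerance and -4 and -10.0 under the stricter FDR. As a gap in ratio it was -0.55 and -0.97. The unscaled contact ratio of lost pairs in NPCs was -0.33. The gap in motif share, -1.27 points, reversed to 1.73 with the relaxed motif, and was -0.48 for bins without pairs of the other kind, also added after seeing the data. By list, the 1-bin tolerance gave 19% for neural progenitor genes, 0% for neuron genes, 8.93% for mesoderm and endoderm genes, 7.69% for Hox genes, 31.3% for protocadherins, 28.9% for signalling ligands and 22.5% for imprinted genes. The FitHiChIP lists gave 49.4% for neural progenitor genes, 33.3% for retinoic acid genes, 39.8% for Hox genes, 44.8% for protocadherins and 60.7% for signalling ligands. The cause of these shifts was not tested. In the other 35 of 66 alternatives the values stayed within the spread used for the comparison. No paired analysis was possible because each group had 1 list without replicate columns and no test was run. Counts for pairs under the callers' limits are not in the lists used here, so complete loss and a fall below a limit cannot be told apart.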
